A study of Mus musculus with 8 samples.

Results

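The genes described here encode 9 transcription factors that specify or maintain microglia, the resident macrophages of the brain: Spi1, Irf8, Runx1, Cebpa, Cebpb, Mef2a, Mef2c, Sall1 and Sall3. They were taken by gene symbol from a table of 129304 genomic regions, each 800 bp wide, which pairs every region with the gene of the nearest promoter. The 9 symbols held 457 regions, and the table held 18707 symbols in all. In each region the table gives the signal of H3K27ac, the acetylated form of lysine 27 on histone H3 that is found at promoters and enhancers in use, as read by sequencing after chromatin immunoprecipitation.

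Nuclei came from the brain of C57BL/6 mice aged 2 years, either wild type (WT) or lacking Grn (GrnKO), the gene of the secreted and lysosomal protein progranulin. Nuclei of frozen hemibrains were fixed, stained and sorted for PU.1, leaving out those with OLIG2 or NEUN. Each library came from nuclei of 2 mice combined, with 2 libraries per genotype for H3K27ac and 2 for input chromatin that was not immunoprecipitated. PU.1 is the product of Spi1, so the sort itself used 1 of the 9 factors, and any other PU.1-positive cell of the brain could pass it. No measurement of RNA or protein entered this comparison, which asks how acetylation at the genes of these factors differed with loss of Grn.

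Macrophage identity is built by a small set of factors that bind enhancers together. PU.1, of the ETS family, opens and holds most of these enhancers. IRF8 has weak affinity for DNA alone and binds composite sites with PU.1, while RUNX1 and the C/EBP factors act earlier, in blood progenitors and in myeloid precursors. In the brain, MEF2 factors and the zinc finger protein SALL1 are associated with the sites that distinguish microglia from other macrophages. SALL1 is known to keep microglia in their resting, tissue-specific state, and its gene is nearly silent in other blood-derived cells. SALL3 is a related zinc finger protein.

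The 4 H3K27ac libraries held 15491642.5 to 20030832 tags and the 4 input libraries 4078179 to 14415969 tags. Values are called scaled tags: tags per 10000000 in the library, further divided by a TMM factor that aligns the H3K27ac libraries on the bulk of the regions. Input values carry no such factor. WT replicate 1 stood apart, with 49.4% of its tags inside the listed regions against 63.3% to 65.7% in the other 3. The region at the start of Grn was at 357 and 300.1 scaled tags in WT and at 0 in either GrnKO library, as the labels have it. The promoters of Y-linked genes held 7.04 and 0 scaled tags in replicate 1 and 260.3 and 203 in replicate 2 of WT and GrnKO, so the pools differed in this respect within each genotype. Labels do not say that the pools were processed as separate experiments, so p-values measure the spread between these libraries. At the promoter regions of 8 microglia markers the mean was 324 to 424 scaled tags per region, and at those of 4 neuron markers 0.318 to 1.32. For markers of border macrophages it was 53.3 to 65.5, of endothelial cells 28.8 to 63.7, of oligodendrocytes 22.2 to 28.4 and of astrocytes 21.1 to 24.7. For lymphocytes it was 4.10 to 14.9, and for monocytes and granulocytes 0 to 20.4. Over the 457 regions, input held a mean of 3.69 scaled tags per region and H3K27ac 112 in WT.

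All 9 genes carried acetylation above input in every H3K27ac library, but at very different levels. Per 800-bp region the order in WT was Spi1 (372 scaled tags), Sall1 (195), Mef2a (192), Cebpa (83.5), Irf8 (80.5), Runx1 (74.6), Mef2c (61.4), Sall3 (44.1) and Cebpb (17.9). Sall1 held 177 and 212 scaled tags per region in the 2 WT libraries and Mef2a 192 and 191, so their order in WT was not resolved. Cebpa and Irf8 also overlapped, at 82.3 and 84.7 against 78.7 and 82.4. By the means alone, the order in GrnKO differed at 2 places, and a change of order was not tested. Sall1, at 124 and 147 scaled tags per region, lay below Mef2a, at 187 and 195. Irf8, at 72.7 and 72.9, lay below Runx1, at 77.5 and 78.8, where in WT Irf8 had been above Runx1 at 72.7 and 76.5. Input means for the 9 genes were 0.512 (Cebpb) to 6.25 (Mef2a) scaled tags per region.

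**Figure D1:**
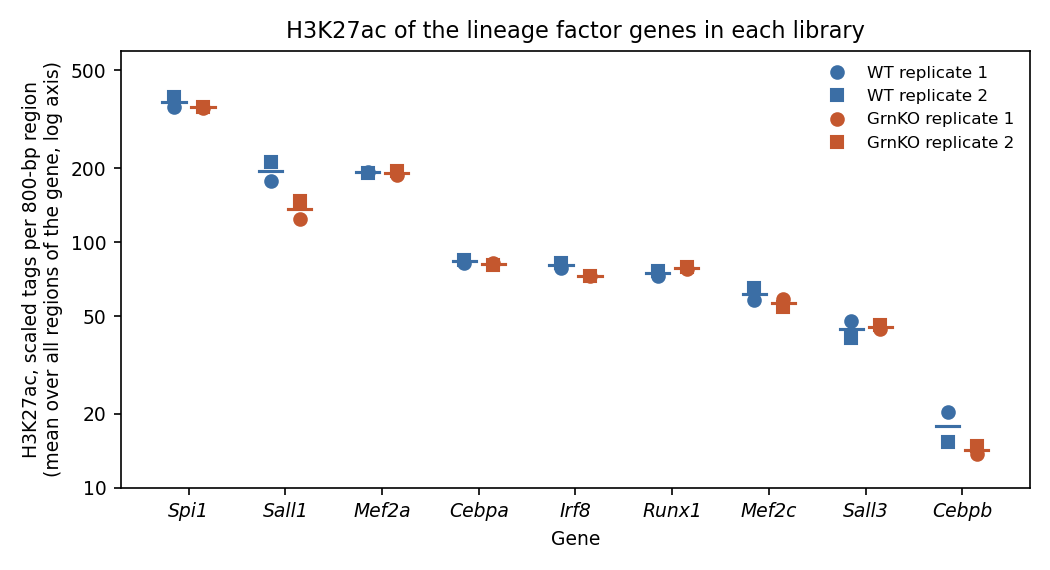
H3K27ac per 800-bp region (scaled tags, log axis) for each of the 9 genes, as the mean over all regions of the gene; circles are replicate 1, squares replicate 2, blue WT, orange GrnKO, and bars the mean of 2 libraries. Both GrnKO points of Sall1, at 124 and 147, lie below both WT points, at 177 and 212, while the points of Spi1, Mef2a, Cebpa, Mef2c and Sall3 overlap between genotypes.

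Summed over all its regions, 1 of the 9 genes passed the test: Sall1 fell by 30.3% in GrnKO. The other 8 sums did not pass, with log2 changes from -0.31 (Cebpb) to 0.07 (Runx1). A sum was called when the adjusted p of limma, a linear model fitted across all genes with Benjamini-Hochberg adjustment, was under 0.05. Of all 15380 genes tested this way, 14.5% were called, 8.59% higher and 5.88% lower in GrnKO, and the median log2 change of all genes was -0.05. The median of the 9 was -0.07.

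At single regions, 390 of the 457 passed the filter on low values and 67 did not. Of the 390, 10 rose and 15 fell in GrnKO, together 6.41%, where 9.71% of all 80728 tested regions were called. Among all regions 6.80% rose and 2.92% fell. The counts for the 390 depended on the settings. With scaling to the library total alone 17 rose and 0 fell, and with a term for replicate number added 22 rose and 27 fell. Of the 15 that fell, 14 belonged to Sall1 and 1 to Mef2a, and of the 10 that rose, 7 belonged to Runx1 and 3 to Mef2a. No region of Spi1, Irf8, Cebpa, Cebpb, Mef2c or Sall3 passed. At an unadjusted p under 0.05 there were 101 of 390 regions, 34 higher and 67 lower, against 23.9% of all tested regions, 13.9% higher and 9.98% lower. Both GrnKO values lay below both WT values at 130 regions, or 33.3%, against 25.6% of all tested regions. Sall1, with 56 of the 390 tested regions, gave 38 of these 130 and 33 of the 67 lower at an unadjusted p under 0.05. Neither share therefore describes the 9 genes as a set.

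**Figure D2:**
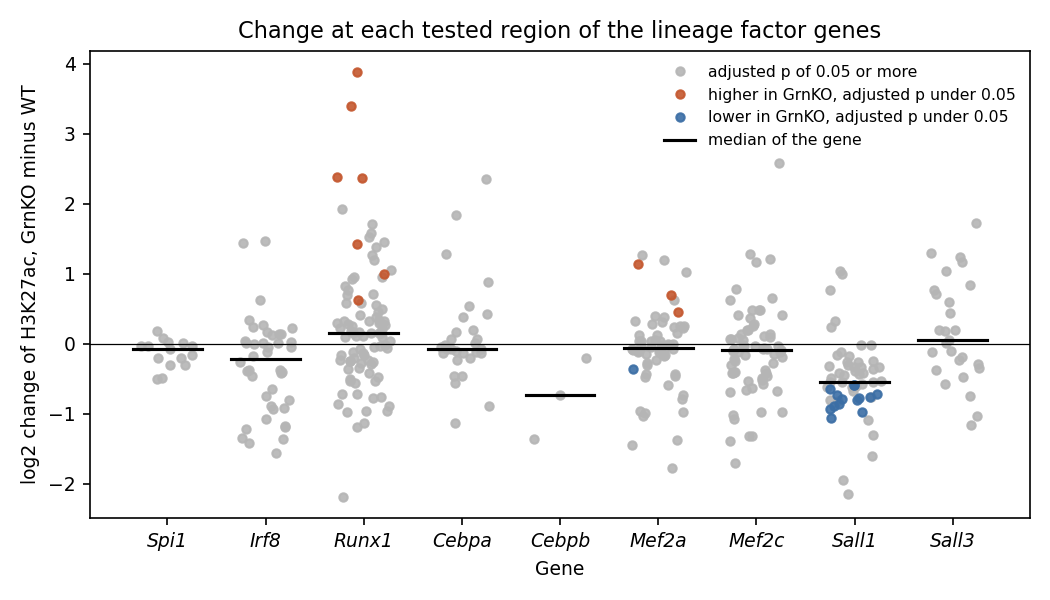
Log2 change of H3K27ac (GrnKO minus WT) at each of the 390 tested regions, 1 point per region, by gene; colour marks an adjusted p under 0.05 and the black bar is the median of the gene. The points of Sall1 sit mostly below 0 around a median of -0.55, and the coloured points above 0 belong to Runx1 and Mef2a.

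With TMM scaling, Sall1 acetylation was lower in GrnKO in its sum and at 14 of 56 tested regions. Its sum was 10117 and 12091 scaled tags in WT and 7083 and 8389.9 in GrnKO. Both GrnKO values lay below both WT values, as at 29.4% of all genes. The log2 change was -0.52 (SE 0.09, 95% interval -0.72 to -0.33, adjusted p = 0.00174), a GrnKO level of 0.697 of WT. Leaving out 1 library at a time gave changes from -0.65 to -0.39, each with an adjusted p under 0.05. Comparing libraries that share a replicate number, the change was -0.51 in replicate 1 and -0.53 in replicate 2. In sorted nuclei, fewer nuclei with an acetylated Sall1 locus and less acetylation per nucleus cannot be told apart.

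The call held with quantile normalization (adjusted p = 0.00139) and with DESeq2 (adjusted p = 0.000501), and it did not hold without a scaling between libraries. With the authors' scaling to the library total alone, the Sall1 sums were 8350.0 and 12523 in WT against 7659 and 9078 in GrnKO, so that WT replicate 1 fell between the GrnKO libraries. The change was then -0.29 (adjusted p = 0.661), and no Sall1 region passed. That scaling moved the median of all genes from -0.05 to 0.18. The distance of Sall1 from the median was -0.47 under both scalings. A scaling shifts all genes of a library together, so this distance could hardly differ and is no test of the fall. A measure that needs no scaling is the share of Sall1 in the tags of the 9 genes, which was 20.4% and 22.9% in WT and 15.3% and 17.5% in GrnKO. These shares did not overlap, though an exact permutation test of 2 libraries against 2 can give no p below 0.333. The other 8 genes together held 39413 and 40798 scaled tags in WT and 39103 and 39501 in GrnKO.

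Of the 57 Sall1 regions, 56 were tested. Of these, 14 fell and none rose, where 2.92% of all tested regions fell. The log2 change was negative at 51 of 56, against 50.1% of all tested regions. Both GrnKO values lay below both WT values at 38 regions (67.9%), and at 1 region both lay above. At an unadjusted p under 0.05 there were 33, all lower. Leaving out WT replicate 1 raised the count of lower regions to 30, leaving out GrnKO replicate 1 left 1 and leaving out GrnKO replicate 2 left 8. By DESeq2 and by edgeR's quasi-likelihood test on the recovered tags, 11 and 14 regions fell.

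The region of Sall1 with the smallest p, chr8:89044720-89045520 in the mm10 build, is annotated as promoter and lies 958 bp upstream of the start. It held 533 and 565 scaled tags in WT and 283 and 360.1 in GrnKO, a log2 change of -0.78 (SE 0.14, adjusted p = 0.00133). The next, chr8:89046131-89046931, is intergenic and 2369 bp upstream. It held 321 and 289 scaled tags in WT and 116 and 182 in GrnKO (log2 change -1.06, SE 0.19, adjusted p = 0.00175). The third, chr8:89396483-89397283, is intergenic and lies 353 kb upstream. It held 398 and 452 scaled tags in WT and 266 and 244 in GrnKO (log2 change -0.73, SE 0.14, adjusted p = 0.00264). At all 3 regions both GrnKO libraries lay below both WT libraries.

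The region on the start itself, chr8:89043822-89044622, held 468 and 628 scaled tags in WT and 357 and 461 in GrnKO. Its GrnKO values were also both below the WT values, but it did not pass (log2 change -0.42, SE 0.15, adjusted p = 0.0933). It passed with a replicate block (adjusted p = 0.00701) and without WT replicate 1 (0.000239). The region with the highest mean, chr8:89041333-89042133 in intron 2 of 3, held 509 and 661 scaled tags in WT and 431 and 545 in GrnKO. There the genotypes overlapped (log2 change -0.26, adjusted p = 0.284), and it passed without WT replicate 1 (adjusted p = 0.00673). The 250 bases before the annotated Sall1 start, chr8:89044163-89044412 on the minus strand, are shown because they lie inside the start region that did not pass and just downstream of the promoter region that fell. They come from RefSeq for GRCm38.p6, the assembly that mm10 names, and run 5′ to 3′ with capitals marking the letters of a CCAAT box read on the opposite strand, at position -137 counted from the start.

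Sall1, before the start: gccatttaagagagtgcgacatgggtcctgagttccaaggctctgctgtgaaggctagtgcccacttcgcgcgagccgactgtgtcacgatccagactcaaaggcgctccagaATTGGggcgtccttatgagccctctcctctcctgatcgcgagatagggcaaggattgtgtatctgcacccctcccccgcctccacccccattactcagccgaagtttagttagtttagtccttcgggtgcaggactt

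Their GC content was 56.4%, and the median of the 32851 promoters in the sequence table was 52.4%. Of those promoters, 33.8% held CCAAT on either strand. The letters of a TATA box (TATAAA), a GC box (GGGCGG), an ETS core (GGAAG), an ETS-IRF composite (GGAANNGAAA, whose first letters overlap the ETS core), a RUNX core (TGTGG), a C/EBP site (TTGCNNCAA), a MEF2 site (CTANNNNTAG) or an AP-1 site (TGANTCA) were searched on both strands and were not in this window. RefSeq lists 2 more starts for Sall1 further downstream, which the region table does not use. The 250 bases before the nearer of them held 4 GC boxes, and those before the other 1 GC box and 1 ETS core. Shares of all promoters with each of the motifs searched, in the order from TATA box to AP-1 site above, were 12.4%, 32.7%, 64.1%, 2.30%, 49.3%, 1.74%, 3.20% and 6.75%.

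Along the locus, the regions that fell reached from 4253 bp downstream of the start to 528 kb upstream. The 12 regions 300 to 400 kb upstream of the start held 281 and 350.3 scaled tags per region in WT and 188 and 214 in GrnKO. Of these, 7 fell, and at 11 both GrnKO values lay below both WT values. The 11 regions within 5 kb of the start held 374 and 424 scaled tags per region in WT and 264 and 326 in GrnKO, and 3 fell. In the 5 to 200 kb upstream, where levels were lower (64.5 and 77.9 in WT, 47.0 and 62.5 in GrnKO), none of 15 tested regions fell at an adjusted p under 0.05. At 6 of these 15 both GrnKO values lay below both WT values. From 200 to 300 kb upstream 2 of 9 fell, beyond 400 kb 2 of 7 fell, and neither of the 2 regions over 5 kb downstream did. Median log2 changes in the stretches from the start outward ran from -0.82 (200 to 300 kb) to -0.33 (within 5 kb). Of the 14 regions that fell, 12 were intergenic, 1 was in intron 2 and 1 was at the promoter.

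**Figure D3:**
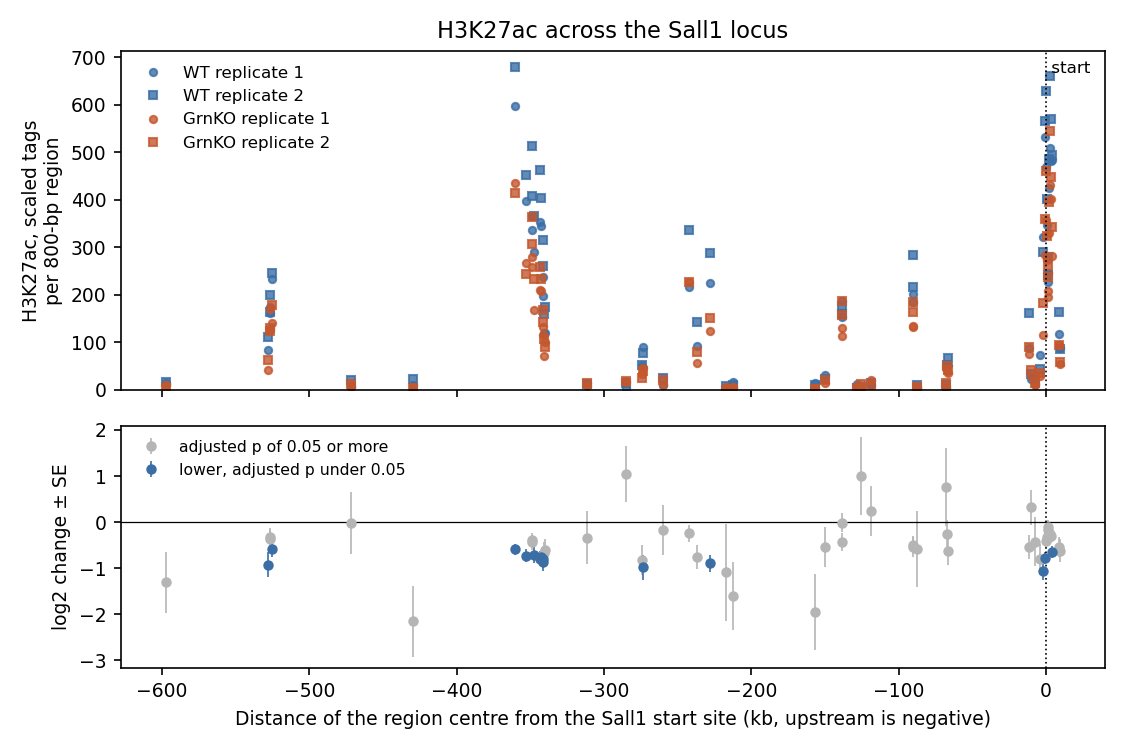
Upper panel, H3K27ac (scaled tags per 800-bp region) of each library at the 57 Sall1 regions by distance from the Sall1 start (kb, upstream negative); lower panel, log2 change (GrnKO minus WT) with its SE at the 56 tested regions, blue where the adjusted p is under 0.05. The groups of high points within 5 kb of the start and 300 to 400 kb upstream hold 3 and 7 of the 14 regions that fell, and 51 of the 56 points in the lower panel lie below 0.

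Genes on either side of Sall1 had from 0 to 2 called regions each. The table assigns 9 tested regions to Mir8110, the next symbol downstream, with a median log2 change of -0.50 and no call. Tox3, beyond the upstream end, had 3 regions and none was tested. Further out, 2 of 52 tested regions of Chd9 fell, with a median of -0.31, and 1 of 10 of Rbl2, with a median of 0.13. None of the 4 of Cyld fell, with a median of -0.58, and 1 of the 4 of Nkd1 did, with a median of -1.66. Adcy7 had 1 region higher and 1 lower of 16 tested, and the 2 of Aktip had a median of -0.61 and no call. Medians close to or below the -0.55 of Sall1 thus also stood at Mir8110, Cyld, Nkd1, Aktip and Gm2716 (-0.78, 1 region), each over 9 tested regions or fewer. The difference between Sall1 and these genes was not tested.

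At Runx1 the sum was not called, and the regions that rose were intronic. Its sums were 7849 and 8259 scaled tags in WT and 8372 and 8509.9 in GrnKO. Both GrnKO values were above both WT values by a small margin, as at 25.4% of all genes, and the change did not pass (log2 change 0.07, SE 0.06, 95% interval -0.07 to 0.20, adjusted p = 0.543). Of its 108 regions 90 were tested, 7 rose and none fell. That is 7.78%, near the 6.80% of all regions that rose. All 7 lay in introns, where 50 Runx1 regions were tested. At 3 of the 7 both WT libraries were under the minimum count of 10 that a region needs in 2 libraries to be tested. Those 3 entered the test through GrnKO alone and had to differ, so the count rests on the other 4. Of all 5488 regions that rose, 451 were of this kind, and no region of Sall1 or Mef2a that was called was.

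The 3 with the smallest p lay in the gene body, and the first 2 are among those that entered through GrnKO alone, so they are given as values. In intron 2 of 6, chr16:92761721-92762521, 64.0 kb downstream of the upstream start, held 1.18 and 0.521 scaled tags in WT and 32.5 and 20.5 in GrnKO. These WT values are 1.5 and 1 tags, so the region was below the floor of 3 tags per library in WT and above it in both GrnKO libraries. In intron 5, chr16:92615873-92616673 held 0.788 and 2.88 scaled tags in WT and 27.2 and 26.5 in GrnKO. In intron 6, chr16:92612281-92613081 held 66.1 and 48.7 scaled tags in WT and 126 and 104 in GrnKO (log2 change 1.00, SE 0.25, adjusted p = 0.0155), and it rose with no overlap between genotypes. Without either GrnKO library, no Runx1 region rose at an adjusted p under 0.05, and without WT replicate 1 or 2, 13 and 15 rose.

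Runx1 is read from a pair of starts that encode different amino ends of the protein. An upstream start is used in definitive blood cells and a downstream start in progenitors and other tissues. The 250 bases before each are shown because H3K27ac at the 2 starts is set side by side next. Both are on the minus strand of chromosome 16 in GRCm38.p6, from RefSeq, and run 5′ to 3′. Capitals mark CCAAT boxes and RUNX cores (TGTGG) on either strand, and an ETS core (GGAAG) in the first. They span chr16:92826075-92826324 and chr16:92697330-92697579.

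Runx1, before the upstream start: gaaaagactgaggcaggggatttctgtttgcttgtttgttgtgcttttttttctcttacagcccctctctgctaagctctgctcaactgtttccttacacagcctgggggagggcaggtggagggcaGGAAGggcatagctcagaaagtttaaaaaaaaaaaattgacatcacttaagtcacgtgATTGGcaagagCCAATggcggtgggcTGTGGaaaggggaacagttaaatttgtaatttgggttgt

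Runx1, before the downstream start: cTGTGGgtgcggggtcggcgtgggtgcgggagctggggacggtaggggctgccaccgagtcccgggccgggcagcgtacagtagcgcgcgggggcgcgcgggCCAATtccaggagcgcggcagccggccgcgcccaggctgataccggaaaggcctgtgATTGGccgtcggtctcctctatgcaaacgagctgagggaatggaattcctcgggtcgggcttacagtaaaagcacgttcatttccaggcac

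The upstream window had a GC content of 45.6% and the downstream window 67.6%. Both held 2 CCAAT boxes, at positions -65 and -54 counted from the upstream start and -148 and -91 from the downstream start. A RUNX core stood at -39 from the upstream and -249 from the downstream start, and the ETS core at -123 from the upstream start. A match of letters describes the sequence and shows no binding.

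Summed over the regions within 1000 bp, the upstream start held 619.8 and 906 scaled tags in WT and 606 and 538 in GrnKO. The downstream start held 576 and 529 in WT and 609 and 691 in GrnKO. In both cases the GrnKO libraries lay to 1 side of the WT libraries, lower at the upstream start and higher at the downstream start. Such separation is common with 2 libraries against 2. Among gene sums it was seen at 29.4% for lower and 25.4% for higher. The change in their ratio was -0.63 on the log2 scale (SE 0.31, 95% interval -1.35 to 0.10) and did not pass (adjusted p = 0.447), where 0.826% of 242 genes with separate starts were called. Without WT replicate 1 it was -0.96 with an adjusted p of 0.00905. At the region on the upstream start, chr16:92825592-92826392, values were 152 and 212 in WT against 132 and 119 in GrnKO (log2 change -0.51, adjusted p = 0.122). The region with the highest mean, chr16:92867498-92868298, 41.8 kb upstream, held 336 and 438 in WT and 479 and 518 in GrnKO (log2 change 0.38, adjusted p = 0.0992). Neither region overlapped between genotypes, where 25.6% of all tested regions had both GrnKO values below both WT values. The first passed without WT replicate 1 (adjusted p = 0.00482). The second passed under quantile normalization (adjusted p = 0.0191), with a replicate block (0.0222) and without WT replicate 2 (0.00104).

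**Figure D4:**
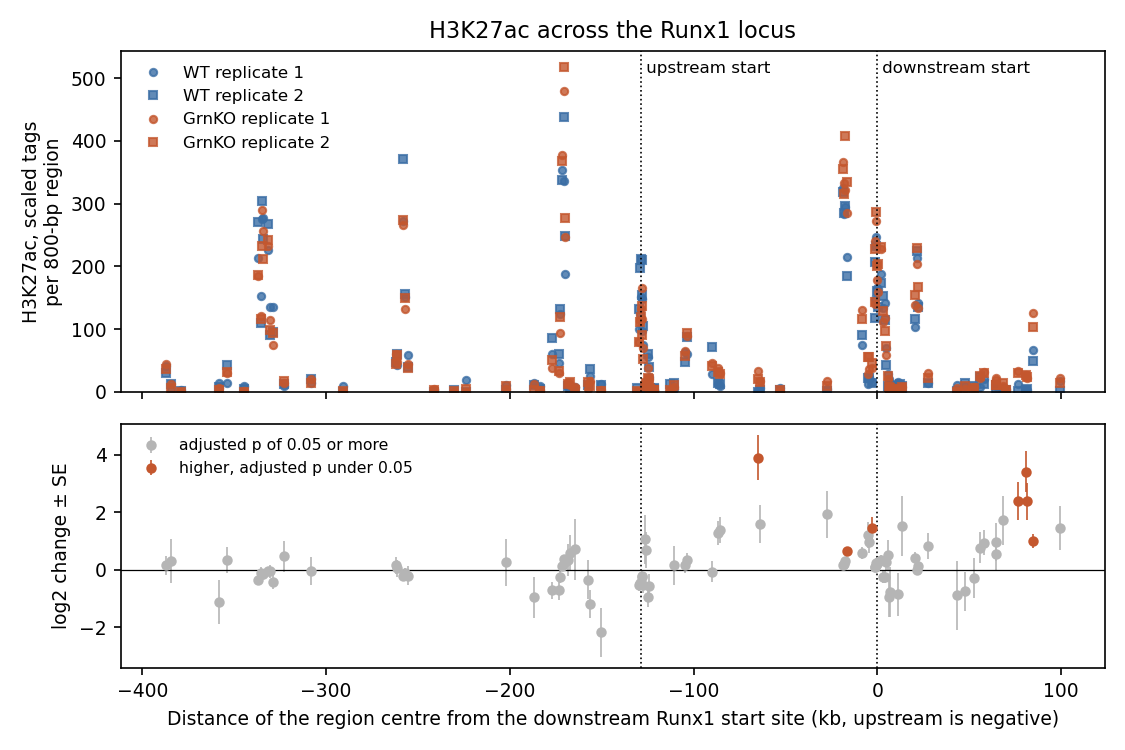
Upper panel, H3K27ac (scaled tags per 800-bp region) of each library at the 108 Runx1 regions by distance from the downstream start (kb, upstream negative), with both starts as dotted lines; lower panel, log2 change with its SE at the 90 tested regions, orange where the adjusted p is under 0.05. All 7 orange points lie downstream of the upstream start, inside the gene, and the median of all 90 points is 0.16.

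The sums of Mef2a and Mef2c, which encode MADS-box factors, were not called. Mef2a held 13077 and 13017 scaled tags in WT and 12723 and 13241 in GrnKO, with overlapping genotypes and a log2 change of -0.01 (SE 0.06, 95% interval -0.13 to 0.11, adjusted p = 0.952). Under quantile normalization its sum rose (log2 change 0.19, adjusted p = 0.00964), and the sign of this small change also turned under other scalings. Mef2c held 4650 and 5176 in WT and 4672 and 4338 in GrnKO, which also overlapped (log2 change -0.12, SE 0.08, 95% interval -0.29 to 0.05, adjusted p = 0.348).

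Within Mef2a, 60 of 68 regions were tested, 3 rose and 1 fell, all intergenic and upstream of the gene. That is 6.67% called, below the 9.71% of all tested regions. The strongest, chr7:67425856-67426656, 53.4 kb upstream, held 155 and 143 scaled tags in WT and 238 and 246 in GrnKO (log2 change 0.70, SE 0.17, adjusted p = 0.0128). A region that overlaps it, chr7:67425423-67426223, held 280.4 and 322 in WT and 400.2 and 422 in GrnKO (0.45, adjusted p = 0.0449), and shares tags with it. The third, chr7:67414677-67415477, held 29.3 and 20.4 in WT and 53.2 and 57.2 in GrnKO (1.14, adjusted p = 0.0405). Further upstream, chr7:67446168-67446968 held 700.4 and 773 in WT and 593 and 557 in GrnKO and fell (-0.36, adjusted p = 0.0488). These 4 did not overlap between genotypes. Leaving out either GrnKO library ended all 4 calls, and leaving out 1 or the other WT library ended each call but that of the strongest. DESeq2 called 1 of the 3 that rose, and edgeR did not call the 1 that fell. The fall also did not pass with the authors' scaling (adjusted p = 0.856), under quantile normalization (0.118) or without the filter (0.269). The overlapping region did not pass with the authors' scaling (adjusted p = 0.124) or without the filter (0.0897), and the third did not under quantile normalization (0.0605). The strongest passed under each of these settings, DESeq2 and edgeR included. The highest region of Mef2a, chr7:67462188-67462988, 89.7 kb upstream, held 941 and 992 in WT and 856 and 943 in GrnKO (-0.10, adjusted p = 0.57). The region on its start, chr7:67372395-67373195, held 535 and 558 in WT and 546 and 547 in GrnKO (0.00, adjusted p = 0.996).

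Of the 80 Mef2c regions 68 were tested and none passed. The region on its most downstream start, chr13:83573130-83573930, was also its highest, with 347 and 431 scaled tags in WT and 350.2 and 360.4 in GrnKO (log2 change -0.12, adjusted p = 0.659). The smallest p was at chr13:83587978-83588778 in intron 2, at 0 and 8.64 scaled tags in WT and 18.1 and 17.3 in GrnKO (adjusted p = 0.0852). There WT replicate 1 had no tag and WT replicate 2 lay below both GrnKO libraries. It passed with the authors' scaling (adjusted p = 0.0474), with a replicate block (0.0169) and without WT replicate 2 (0.000176), where 1, 2 and 3 Mef2c regions rose. The ratio of its upstream to its downstream start changed by 0.04 on the log2 scale (95% interval -0.52 to 0.60, adjusted p = 0.957).

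Spi1, the gene of the factor used in the sort, had the highest acetylation per region of the 9, and its genotypes overlapped. Its 15 regions, all tested, summed to 5291 and 5855 scaled tags in WT and 5269 and 5329.9 in GrnKO (log2 change -0.07, SE 0.07, 95% interval -0.23 to 0.09, adjusted p = 0.598). A fall of the size seen at Sall1 lies outside this interval. Its highest region, chr2:91083167-91083967, lies 13.1 kb upstream of the start, near where a distal Spi1 enhancer is known. It held 901 and 1157 scaled tags in WT and 1022 and 1057 in GrnKO (log2 change 0.03, 95% interval -0.20 to 0.26, adjusted p = 0.919). The region on the start, chr2:91096371-91097171, held 387 and 537 in WT and 395 and 475 in GrnKO (-0.07, adjusted p = 0.828). In both regions the WT values enclosed the GrnKO values. The smallest p of Spi1 was in intron 1, at chr2:91098001-91098801, with 275 and 267 in WT and 225 and 212 in GrnKO (log2 change -0.31, adjusted p = 0.226).

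At Irf8, whose product pairs with PU.1, most tested regions had negative changes and none passed. Its 51 regions summed to 4011 and 4201 scaled tags in WT and 3708 and 3717 in GrnKO, so that the genotypes did not overlap, as at 29.4% of all genes for this direction. The log2 change was -0.14 (SE 0.07, 95% interval -0.30 to 0.01, adjusted p = 0.232). Of 42 tested regions none passed, while at an unadjusted p under 0.05 there were 12 lower and 1 higher, where 9.98% of all regions were lower at that level. The region with the smallest p, chr8:120786170-120786970, lies 47.9 kb downstream of the start. It held 23.5 and 33.0 scaled tags in WT and 9.05 and 8.54 in GrnKO (log2 change -1.56, SE 0.49, adjusted p = 0.0531). This region was close to the threshold, and it passed by edgeR's quasi-likelihood test (adjusted p = 0.0425), under quantile normalization (0.0381), with a pseudocount of 5 (0.0461) and with a replicate block (0.0297). Without WT replicate 1, 4 Irf8 regions fell. The region with the highest mean, chr8:120743696-120744496 in intron 3, held 391 and 438 in WT and 343 and 420.3 in GrnKO (log2 change -0.12, adjusted p = 0.65). The region on the start, chr8:120736080-120736880, held 215 and 164 in WT and 189 and 193 in GrnKO (0.02, adjusted p = 0.959). At both of these the genotypes overlapped.

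The C/EBP genes gave no call in the test as designed. Cebpa, whose product drives myeloid commitment, summed to 2469.97 and 2541 scaled tags in WT and 2472 and 2411 in GrnKO over 30 regions, with overlapping genotypes (log2 change -0.04, SE 0.08, 95% interval -0.22 to 0.14, adjusted p = 0.83). Its highest region, chr7:35118188-35118988 at the promoter, held 431 and 403 in WT and 373 and 431 in GrnKO (-0.05, adjusted p = 0.855), and the region on the start, chr7:35118742-35119542, held 212 and 199 in WT and 198 and 215 in GrnKO (0.01, adjusted p = 0.986). Its smallest p was at chr7:35126933-35127733, 8.04 kb downstream, at 0.388 and 8.12 in WT and 21.5 and 13.6 in GrnKO (adjusted p = 0.0937). It passed with a replicate block (adjusted p = 0.0285) and without WT replicate 2 (0.000567), where 1 and 2 Cebpa regions rose. Cebpb, a C/EBP factor of inflammatory macrophages, had the lowest level of the 9. Its 8 regions summed to 163 and 123 in WT and 110.3 and 119 in GrnKO (log2 change -0.31, SE 0.22, 95% interval -0.79 to 0.18, adjusted p = 0.43), an interval that holds both 0 and the change seen at Sall1. Both GrnKO sums lay below both WT sums, as at 29.4% of all genes. Of the 8 regions 3 were tested and none passed. Most of its signal was in the region on the start, chr2:167688563-167689363, at 130.2 and 99.8 in WT and 92.5 and 105 in GrnKO (-0.21, adjusted p = 0.623). The smallest p, at 2407 bp upstream (chr2:167686108-167686908), had 10.95 and 8.38 in WT and 4.52 and 2.08 in GrnKO (adjusted p = 0.332).

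Sall3, the paralog of Sall1, gave no call. Its 40 regions summed to 1903 and 1625 scaled tags in WT and 1776 and 1836 in GrnKO, with overlapping genotypes (log2 change 0.04, SE 0.10, 95% interval -0.18 to 0.25, adjusted p = 0.857). Of 27 tested regions none passed, and at an unadjusted p under 0.05 there were 4 higher and 2 lower, where 13.9% and 9.98% of all regions were. Its highest region, 838 bp downstream of the start in intron 1, held 204 and 150.1 in WT and 192 and 209 in GrnKO (log2 change 0.20, adjusted p = 0.572). The region nearest to the start, 274 bp downstream, held 163 and 134 in WT and 141 and 167 in GrnKO (0.05, adjusted p = 0.912). In both the genotypes overlapped. The smallest p was 5.24 kb downstream in intron 1, at 24.6 and 25.7 in WT and 50.9 and 54.2 in GrnKO (log2 change 1.03, SE 0.33, adjusted p = 0.0559). It passed with the authors' scaling (adjusted p = 0.0295) and with a replicate block (0.0333), and under either of these 4 Sall3 regions rose. The difference between the changes of Sall1 and Sall3 was not tested.

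Whether distal regions changed by a different amount from promoters was tested next. The ratio of the distal sum, over 1000 bp from a start, to the promoter sum was compared between genotypes by limma over 7324 genes, of which 0.0273% were called. None of the 9 was called. For Sall1 the change in this ratio was 0.00 on the log2 scale, with a 95% interval of -0.22 to 0.22 (adjusted p = 0.999). The extremes were Cebpb (-0.41, 95% interval -1.81 to 1.00) and Runx1 (0.20, 95% interval -0.08 to 0.48, adjusted p = 0.489).

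Genes of related factors were read from 2 lists. Of 14 paralogs and partners of the 9, 12 were tested, and 1 rose and 2 fell, where 8.59% of all genes rose and 5.88% fell. Runx2, a RUNX paralog known from bone, held 405 and 369.8 scaled tags in WT and 643 and 539.6 in GrnKO (log2 change 0.61, SE 0.14, adjusted p = 0.0116). Cebpd, a C/EBP paralog of the acute phase response, held 2912 and 2597 in WT and 2137 and 2086 in GrnKO (-0.38, SE 0.09, adjusted p = 0.0109). Cebpe, the C/EBP paralog of granulocytes, held 575 and 621 in WT and 448 and 441 in GrnKO (-0.43, SE 0.13, adjusted p = 0.0432). In all 3 the genotypes did not overlap, as at 29.4% of all genes in the falling and 25.4% in the rising direction. The median of the 12 was 0.01, beside -0.05 for all genes. With the authors' scaling 2 rose and 0 fell, and without either GrnKO library 0 fell. Without GrnKO replicate 1 Runx2 did not pass either (adjusted p = 0.252), so 0 rose. Cebpe did not pass by DESeq2 (adjusted p = 0.0587) or without the filter (adjusted p = 0.0775).

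Of 36 other macrophage and microglial factors, all tested, 5 rose and 2 fell, where 8.59% of all genes rose and 5.88% fell. Id2, an inhibitor of E proteins, held 556 and 491 scaled tags in WT and 855 and 772 in GrnKO (log2 change 0.64, SE 0.13, adjusted p = 0.00438). Tgif1, a repressor in TGF-beta signalling, held 4807 and 5171 in WT and 6401 and 6210.5 in GrnKO (0.34, adjusted p = 0.00536). Nfe2l2, which encodes the oxidative stress factor NRF2, held 2865 and 2823 in WT and 3560.2 and 3549.6 in GrnKO (0.32, adjusted p = 0.0125). None of these 3 overlapped between genotypes. Tcf12, an E protein, held 611 and 568 in WT and 810.4 and 793 in GrnKO (0.44, adjusted p = 0.0236), and Stat6, which answers to interleukin signalling, was the fifth that rose (0.44, adjusted p = 0.0393). Klf2, a Krüppel-like factor of quiescent cells, held 644 and 563 in WT and 398 and 368 in GrnKO and fell (-0.65, SE 0.14, adjusted p = 0.00626). Tal1, a blood lineage factor, held 1813 and 2174 in WT and 1509 and 1514 in GrnKO and fell (-0.39, adjusted p = 0.0213). These 4 did not overlap either. With the authors' scaling alone, 3 of the 36 rose and none fell. Without GrnKO replicate 1, 0 rose and 1 fell, and without GrnKO replicate 2, 1 rose and 0 fell.

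**Figure D5:**
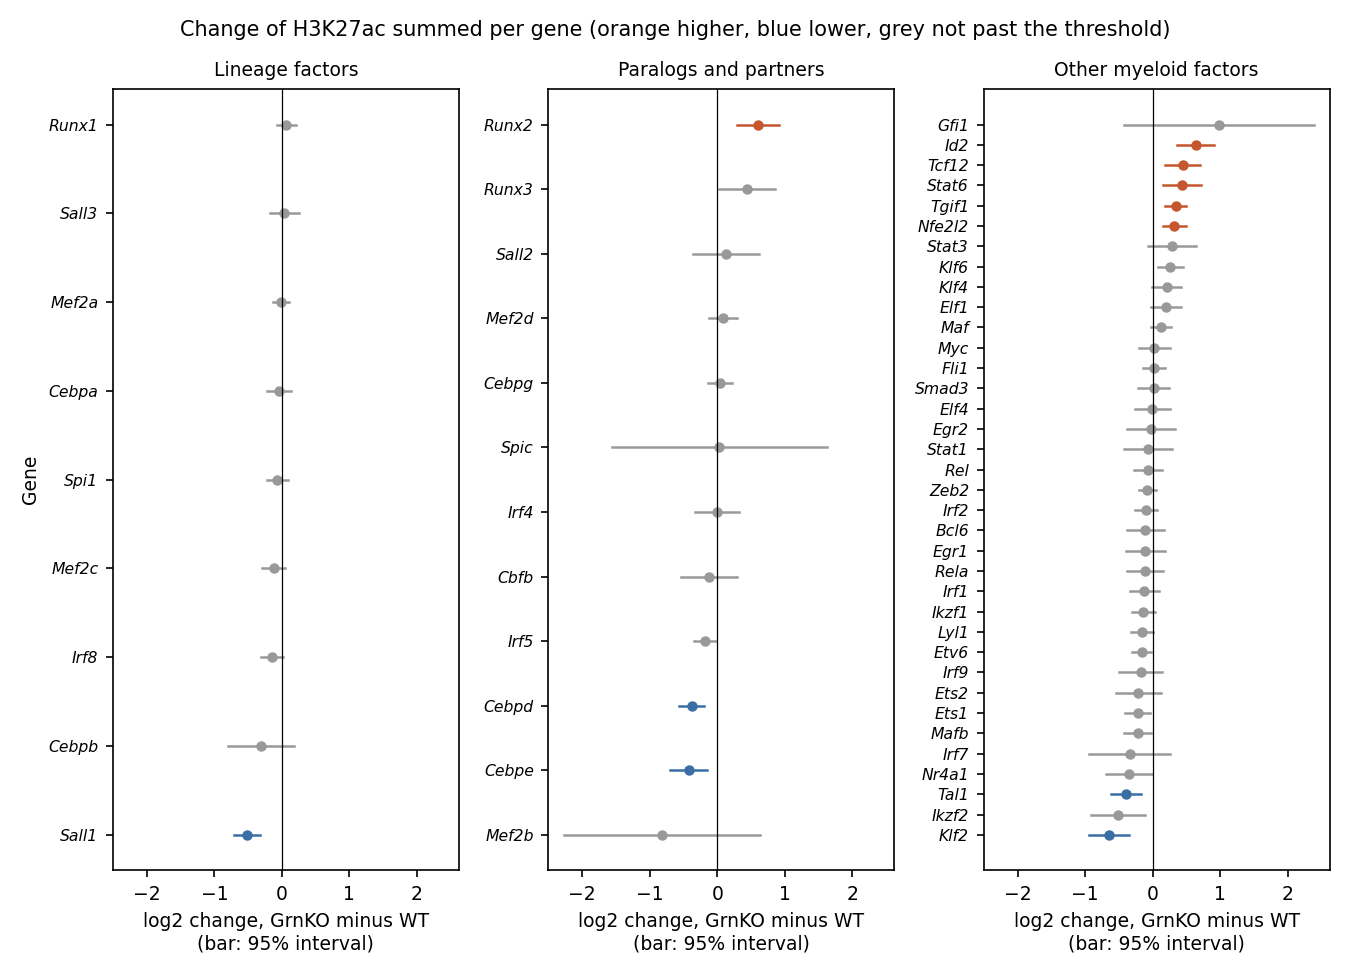
Log2 change (GrnKO minus WT) of H3K27ac summed per gene with its 95% interval, for the 9 lineage factor genes, 12 tested paralogs and partners and 36 other myeloid factors; orange and blue mark an adjusted p under 0.05. Sall1, at -0.52, is the only coloured point in the left panel, while both other panels hold points on each side of 0.

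Acetylation at genes that mark the cell types of the sort is given beside these results. Of 9 microglia markers tested, 4 fell and none rose (Cx3cr1, Csf1r, Siglech and Tmem119), with a median of -0.22 against -0.52 for the Sall1 sum, where 5.88% of all genes fell. With the authors' scaling 0 fell, and without GrnKO replicate 1 or 2, 1 and 2 fell. Their summed level was 203 and 206 scaled tags per region in WT and 174 and 167 in GrnKO. Of 8 border macrophage markers, 1 rose and none fell, with a median of 0.00. The one that rose was Ms4a7, at 169.7 and 147 scaled tags in WT and 549.9 and 419.9 in GrnKO (log2 change 1.60, adjusted p = 7.16e-05). For Cd163 and Lyve1 the table holds no promoter region.

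Of 4 tested monocyte and granulocyte markers, Ccr2 fell (log2 change -0.53, adjusted p = 0.0432), and S100a8 held 0 and 5.24 scaled tags in WT and 20.4 and 18.7 in GrnKO. S100a8 entered the test through GrnKO alone, so it is given as values. The table holds a promoter region for 1 of the 8 on that list, S100a8. Of 2 tested lymphocyte markers, Ms4a1 rose, from 219 and 197 scaled tags in WT to 609 and 463 in GrnKO (log2 change 1.35, adjusted p = 0.000177), and Cd79b did not pass (-0.16). No promoter region was listed for Ms4a1, so its sum rests on 6 distal regions assigned to it by nearest promoter. Promoter regions were listed for 2 of 7 lymphocyte, 4 of 10 neuron, 7 of 9 oligodendrocyte, 4 of 8 astrocyte and 2 of 8 endothelial markers, and for 8 of 9 microglia markers, all but Aif1. Those of Pax5 (lymphocytes), Slc17a7 and Tubb3 (neurons) and Olig2 (oligodendrocytes) were under 3 scaled tags in every H3K27ac library. Sums over all regions of a gene also moved on these lists. Among oligodendrocyte markers Mbp rose (0.47, adjusted p = 0.00268) and Mog fell (-1.30, adjusted p = 0.00154). The neuron marker Syt1, for which no promoter region was listed, fell (-0.99, adjusted p = 0.0213). Among endothelial markers Flt1 rose, from 495 and 425 scaled tags in WT to 877 and 896 in GrnKO (0.95, adjusted p = 0.000285), and Emcn fell (-0.83, adjusted p = 0.0349). Over the promoter regions of the 2 endothelial markers that have them, Flt1 and Kdr, the level was 28.8 and 31.7 scaled tags per region in WT and 58.4 and 63.7 in GrnKO. No astrocyte marker passed. The part of these cell types in the change at Sall1 was not tested.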

How the data were processed

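Values came from 1 deposited table of regions with annotations and 8 columns of values, 4 for H3K27ac and 4 for input. Per the file headers, the authors' signal is the HOMER tag number of a region scaled to a library of 10000000, over a merged list of ATAC-seq peaks that includes labels of other mouse lines. The submitters' processing notes name Bowtie2, HOMER, DESeq2 and mm10, and versions and the handling of duplicates are not given in the sources used here. All 8 columns were matched to samples by title.

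Multiplying by library totals returned whole read ends, at 2 per tag, for 100% of values, within the rounding of the deposited values (0.0200 read ends at most). TMM factors by edgeR 4.0.16 came to 0.825 and 1.04 (WT) and to 1.08 and 1.08 (GrnKO). Regions or gene sums were kept by filterByExpr with a minimum count of 10, and log2(scaled tags + 1) was fitted by limma 3.58.1 (R 4.3.3; eBayes with trend) with genotype as the only term, over 80728 regions and 15380 genes, with Benjamini-Hochberg adjustment at 0.05. This scale understates the change of low regions. Sums count a tag once in each overlapping region. Ratios of distal to promoter regions and of starts were fitted over 7324 and 242 genes. The comparison of starts was added after the data were seen. Alternatives were other scalings, no filter, a pseudocount of 5, edgeR and DESeq2 1.42.0 on the recovered tags, other sums, a replicate block and leaving out each library.

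In simulated tags, the test of 15380 gene sums recovered 12.5%, 51.3% and 79.3% of changes of 0.5, 1 and 2 on the log2 scale, and the test of 80728 regions 3.03%, 14.3% and 56.2%. Each of these simulations changed 200 features drawn from all levels, far fewer than the genes or regions called in the data. The rates therefore do not give the power for the 9 genes. The floor was 3 tags per library. Coordinates are as the table gives them. RefSeq promoters for GRCm38.p6 matched 7 of the 9 genes, and the starts implied by the table for the shown promoters equalled those of RefSeq. The text names, for each of the 9 genes, the region nearest to the start, the region with the highest mean and up to 3 called regions per direction with the smallest p, or else the region with the smallest p. From the 2 lists it names up to 4 called genes per direction. Stat6, the genes beside Sall1 and the cell type markers were named after their values were seen, and 3 markers are not reported here. The members and all lists were chosen with earlier results of these data known.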

Additional observations from a re-analysis of the deposited data

How the results depend on the processing

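Of 1090 values under alternative settings, 858 kept both sign and call or, for counts, stayed within 1.5 times the main count, and the cause of the others was not tested. Under the authors' scaling to the library total alone, the Sall1 sum changed by -0.29 and was not called, the count of called genes among the 9 was 0, and the sums of Spi1 (0.16), Irf8 (0.081), Cebpa (0.19), Mef2a (0.22) and Mef2c (0.10) turned positive without a call. So did single regions on or near the starts of Spi1 (0.15), Cebpb (0.014), Cebpa (0.17) and Mef2c (0.10) and the highest regions of Mef2a (0.12) and Irf8 (0.10). With it 17 regions of the 9 genes rose and 0 fell, 0 of them at Sall1; 2 paralogs and partners rose and 0 fell, 3 other factors rose and 0 fell, and 0 microglia markers fell. That scaling gave 95.2% of called regions as higher, against 70.0% with TMM. Quantile normalization gave 64.7% and no filter 80.7%.

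Under quantile normalization 1 of the 9 genes rose, Mef2a at 0.19 (limma adjusted p = 0.00964), and regions of Cebpa (0.034) and Spi1 (0.013) turned. Without a filter the sums of Cebpa (0.0046) and Mef2a (0.035) turned, and 1 paralog, 1 other factor and 2 microglia markers fell. TMM factors from the gene sums turned Mef2a to 0.029 and left 1 paralog lower. DESeq2 gave 0.026 for the Mef2a sum and -0.0034 for the region on its start, 6 regions higher in all, 1 of them at Mef2a, and 1 paralog lower. Over promoter regions alone Irf8 was 0.033 and Runx1 -0.10, 0 paralogs rose and 1 fell, 1 other factor rose and 0 fell, and 2 microglia markers fell. Over distal regions alone 1 paralog and 1 other factor fell. With promoters drawn to 3000 bp the distal to promoter ratio turned for Spi1 (0.083), Sall3 (-0.0055) and Mef2c (0.057).

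Replicate numbers join different mice, though same-numbered libraries were alike in Y-linked signal, low in replicate 1 and high in replicate 2. Over the tested regions the deviations of same-numbered libraries correlated at 0.03 over 2 pairs, and the main test assumed no pairing. With the replicate block 22 regions of the 9 genes rose and 27 fell, 11 Runx1 regions rose and 2 paralogs rose.

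Leaving out 1 library at a time, which assumes that the lone library varies like the others, gave 0 to 28 regions higher and 1 to 48 lower, 1 to 30 lower at Sall1, 0 to 15 higher at Runx1 and 0 to 4 higher at Mef2a. It gave 1 to 2 of the 9 genes lower, the second being Mef2c (limma adjusted p = 0.0304 without WT replicate 1). Paralogs ranged from 0 to 2 higher and 0 to 2 lower, other factors from 0 to 8 higher and 0 to 6 lower, and microglia markers from 0 to 1 higher and 1 to 6 lower. Sums ranged from -0.14 to 0.0049 for Spi1, -0.073 to 0.15 for Sall3, -0.036 to 0.021 for Mef2a and -0.20 to -0.044 for Mef2c. Distal to promoter ratios ranged from -0.14 to 0.095 for Spi1, -0.11 to 0.085 for Cebpa, -0.036 to 0.021 for Mef2c, -0.048 to 0.047 for Sall1 and -0.018 to 0.084 for Sall3. The ratio of starts ranged from -0.96 to -0.29 for Runx1 and -0.15 to 0.22 for Mef2c. Regions on or nearest to the start ranged from -0.31 to 0.17 for Spi1, -0.17 to 0.22 for Irf8, -0.052 to 0.067 for Cebpa, -0.029 to 0.035 for Mef2a, -0.28 to 0.037 for Mef2c and -0.086 to 0.19 for Sall3. The highest regions ranged from -0.15 to 0.21 for Spi1, -0.27 to 0.022 for Irf8, -0.16 to 0.049 for Cebpa and -0.020 to 0.42 for Sall3. With 2 libraries per genotype, changes near 0.5 were rarely recovered in simulated gene sums, so a missing call does not show that a gene kept its level.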
